A study of Mus musculus with 18 samples.

Results

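Vehicle-treated pre-osteoblasts were described by setting 2 histone marks against the RNA of the same culture condition. The cells were MC3T3-E1 subclone 4, a clonal line from C57BL/6 mouse calvaria that can be taken towards bone-forming osteoblasts, at passage 9. All samples were collected on day 3 in medium with ascorbic acid and β-glycerol phosphate, which drives osteogenic differentiation. The vehicle arm received 0.25% DMSO, and cells of the other arm were given EPZ6438 at 2.5 µM, a small molecule that blocks the methyltransferase EZH2. The vehicle arm held 7 of the study's 18 samples: 3 RNA samples, 2 H3K4me3 and 2 H3K27me3 chromatin immunoprecipitations. The RNA samples held 18807156, 22221007 and 25365513 reads, and each pair of immunoprecipitations was deposited as 1 merged peak list. Nothing stated that these samples came from separate cultures, so the errors below measure only the spread between them. Protein-coding genes, 22032 of the 43346 genes in the expression table, were sorted by whether a peak of the merged DMSO list of either mark lay within 1 kb of either gene end. This gave 6445 genes with H3K4me3 only, 3033 with H3K27me3 only, 716 with both marks and 11838 with neither mark.

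H3K4me3, trimethylation of lysine 4 of histone H3, is laid down by SET1 and MLL complexes around the start sites of active and poised genes. H3K27me3 is laid down by Polycomb repressive complex 2, whose catalytic subunit is EZH1 or EZH2, and covers genes that are held silent, above all regulators of other developmental fates. Promoters that carry both marks are called bivalent and are known from stem and progenitor cells. The marks were read from a population of cells, so a gene in the class with both marks may carry them on different alleles or in different cells. In bulk RNA likewise, expression in fewer cells and less RNA per cell cannot be told apart.

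The labelled cell type was checked on 3 genes. Runx2, the master transcription factor of the osteoblast lineage, had 31.9, 30.6 and 28.7 RPKM (reads scaled to gene length and library size) in DMSO samples 1 to 3, and Sp7, the osteoblast factor downstream of it, had 52.6, 53.8 and 55.8 RPKM. Ibsp, a mineral-binding matrix protein of bone, had 217, 185 and 177 RPKM. Runx2 and Sp7 were in the class with H3K4me3 only, and Ibsp had neither mark. Markers of the other lineages were low but not all at 0: of 80 epithelial, neuronal, blood, endothelial, adipocyte and striated muscle markers 8 reached 1 RPKM, and their levels summed to between 48.3 and 50.1 RPKM per sample. The highest were Lyz2 of myeloid cells (15.6 RPKM ± 1.52 SD, n = 3), the postsynaptic scaffold gene Dlg4 (8.72 ± 1.55 RPKM) and the neuronal tubulin Tubb3 (8.00 ± 1.12 RPKM). The smooth muscle genes Acta2 (2097 RPKM) and Actg2 (236 RPKM) were high.

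Promoters of the 2 highest genes of each class with a RefSeq entry are shown because the classes differed in how many CG dinucleotides these stretches held. Each is the 250 bases before the start given by RefSeq (build GRCm38.p6), from 5′ to 3′ on the gene's strand, with every CG in capitals. From the class with H3K4me3 only come Eef1a1, the translation elongation factor (chr9:78481725-78481974, minus strand), and Col1a2, a chain of type I collagen (chr6:4505368-4505617, plus strand). The RefSeq start lay 7427 bp inside the end of the expression table's gene for Eef1a1 and 804 bp inside it for Col1a2.
Eef1a1: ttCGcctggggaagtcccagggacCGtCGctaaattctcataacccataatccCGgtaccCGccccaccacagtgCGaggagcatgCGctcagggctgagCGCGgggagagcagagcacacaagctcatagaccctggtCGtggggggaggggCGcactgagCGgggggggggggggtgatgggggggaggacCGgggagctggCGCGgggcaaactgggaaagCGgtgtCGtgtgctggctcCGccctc
Col1a2: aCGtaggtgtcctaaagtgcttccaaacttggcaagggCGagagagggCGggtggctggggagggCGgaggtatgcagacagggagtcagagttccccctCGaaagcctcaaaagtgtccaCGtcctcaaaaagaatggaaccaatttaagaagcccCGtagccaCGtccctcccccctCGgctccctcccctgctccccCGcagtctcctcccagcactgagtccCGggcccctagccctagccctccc
From the class with H3K27me3 only come 2 expressed exceptions, Rpl26 of the large ribosomal subunit (chr11:68901316-68901565, plus strand) and Csrp1, a LIM-domain protein of the actin cytoskeleton (chr1:135719813-135720062, plus strand).
Rpl26: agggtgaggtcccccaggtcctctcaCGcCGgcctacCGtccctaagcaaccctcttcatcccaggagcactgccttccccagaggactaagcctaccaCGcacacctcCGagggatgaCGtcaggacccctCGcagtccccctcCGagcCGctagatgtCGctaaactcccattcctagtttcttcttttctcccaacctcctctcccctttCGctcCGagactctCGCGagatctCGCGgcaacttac
Csrp1: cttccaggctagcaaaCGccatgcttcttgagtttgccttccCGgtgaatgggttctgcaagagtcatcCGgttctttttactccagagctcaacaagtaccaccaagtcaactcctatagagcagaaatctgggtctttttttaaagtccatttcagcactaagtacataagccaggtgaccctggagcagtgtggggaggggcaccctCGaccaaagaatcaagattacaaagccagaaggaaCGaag
To set beside them, the 2 genes of that class with 0 reads whose 5′ window was most covered by H3K27me3 are Alox12b, an epidermal lipoxygenase (chr11:69156822-69157071, plus strand), and Efcc1 (chr6:87730619-87730868, plus strand). They were chosen after the values were seen.
Alox12b: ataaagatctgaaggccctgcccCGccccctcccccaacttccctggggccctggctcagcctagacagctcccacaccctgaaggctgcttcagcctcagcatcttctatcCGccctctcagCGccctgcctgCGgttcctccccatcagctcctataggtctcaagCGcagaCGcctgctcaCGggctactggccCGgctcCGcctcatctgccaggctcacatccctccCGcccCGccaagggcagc
Efcc1: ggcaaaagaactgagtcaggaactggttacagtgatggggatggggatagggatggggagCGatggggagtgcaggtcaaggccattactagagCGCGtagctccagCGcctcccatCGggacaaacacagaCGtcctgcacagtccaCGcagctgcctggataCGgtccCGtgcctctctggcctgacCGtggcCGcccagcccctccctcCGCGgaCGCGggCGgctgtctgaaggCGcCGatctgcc
From the class with both marks come the ribosomal protein gene Rpl23 (chr11:97782440-97782689, minus strand) and Sec13, a coat protein of vesicles that leave the endoplasmic reticulum (chr6:113740682-113740931, minus strand).
Rpl23: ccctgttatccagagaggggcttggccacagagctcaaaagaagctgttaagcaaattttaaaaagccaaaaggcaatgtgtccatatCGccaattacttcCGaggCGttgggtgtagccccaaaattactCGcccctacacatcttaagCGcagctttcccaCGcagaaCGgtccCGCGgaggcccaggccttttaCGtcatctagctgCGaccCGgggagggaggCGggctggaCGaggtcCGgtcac
Sec13: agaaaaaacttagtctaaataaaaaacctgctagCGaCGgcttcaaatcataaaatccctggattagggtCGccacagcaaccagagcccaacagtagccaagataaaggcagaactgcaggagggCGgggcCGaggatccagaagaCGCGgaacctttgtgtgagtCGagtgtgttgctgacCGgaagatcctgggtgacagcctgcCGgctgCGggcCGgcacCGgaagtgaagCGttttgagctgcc
From the class with neither mark come Acta2, smooth muscle actin (chr19:34255374-34255623, minus strand), and the ribosomal protein gene Rps27 (chr3:90213649-90213898, minus strand).
Acta2: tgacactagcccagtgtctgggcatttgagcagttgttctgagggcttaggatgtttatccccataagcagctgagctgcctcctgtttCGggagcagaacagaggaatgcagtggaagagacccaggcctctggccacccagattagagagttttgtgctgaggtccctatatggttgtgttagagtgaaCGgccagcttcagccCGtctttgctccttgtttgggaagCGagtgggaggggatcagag
Rps27: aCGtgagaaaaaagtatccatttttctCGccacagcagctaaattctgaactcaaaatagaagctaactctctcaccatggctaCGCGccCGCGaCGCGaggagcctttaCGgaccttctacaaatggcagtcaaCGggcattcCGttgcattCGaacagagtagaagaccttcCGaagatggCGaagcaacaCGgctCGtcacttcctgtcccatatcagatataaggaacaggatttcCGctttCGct

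CG counts in these stretches ran from 4 in Acta2 and 5 in Csrp1 to 18 in Eef1a1, Rps27 and Efcc1. H3K27me3 peaks covered all 250 bases shown for Alox12b and Efcc1. None of the other 8 stretches overlapped a DMSO peak of either mark. The nearest H3K27me3 peak of Rpl26 ended 669 bp upstream of its start, that of Csrp1 829 bp, that of Rpl23 830 bp and that of Sec13 964 bp. CG was searched as the letters CG, which read the same on both strands, and 93.0% of all 16545 matched promoters held at least 1 in 250 bases. The median count was 18 with H3K4me3 only, 11.5 with both marks, 6 with neither mark and 5 with H3K27me3 only. The ratio of observed to expected CG over the 300-base entries had medians of 0.826, 0.639, 0.400 and 0.331 in the same order.

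Genes with H3K4me3 only were nearly all expressed, and genes with H3K27me3 only were mostly silent. At 1 RPKM or more stood 93.0%, 93.2% and 93.2% of genes with H3K4me3 only in DMSO samples 1 to 3, against 7.68%, 7.91% and 8.21% with H3K27me3 only. Genes with both marks lay between, at 33.0% ± 0.61 (SD, n = 3), and genes with neither mark at 34.7% ± 0.11. No sample of one of the first 3 classes overlapped a sample of another. The difference between H3K4me3 only and H3K27me3 only was 85.2 percentage points ± 0.22, that between both marks and H3K27me3 only was 25.03 ± 0.39, and that between H3K4me3 only and both marks was 60.2 ± 0.53, each far above the spread over samples. Neither mark stood 1.77 points ± 0.51 above both marks, an order that held in 12 of 18 settings of window, peak width, gene set and scaling. No p-value is given for these differences, because genes of 1 sample are not replicates and an exact sign-flip test over 3 samples cannot go below 0.25.

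By median level both marks stood above neither mark, but not higher up the range. Both medians lay near the 3-read floor of a sample, so their order carries little weight. The median of the mean DMSO RPKM was 11.3 with H3K4me3 only (quartiles 5.06 and 24.9), 0.0544 with both marks, 0.0225 with neither mark and 0 with H3K27me3 only. The upper quartile was 2.83 RPKM with both marks and 4.44 RPKM with neither mark. At 10 RPKM or more stood 11.7% and 15.7% of these 2 classes. With a 500 bp window their medians also changed order, to 0.0177 and 0.0323 RPKM. No read at all in any DMSO sample was found for 57.2% of genes with H3K27me3 only, 44.5% with neither mark, 32.5% with both marks and 1.19% with H3K4me3 only. Of 438 genes at 100 RPKM or more, 294 had H3K4me3 only, 135 neither mark, 6 H3K27me3 only and 3 both marks. Genes with H3K4me3 only held 65.8% of the summed RPKM, and genes with neither mark 31.8%.

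**Figure D1:**
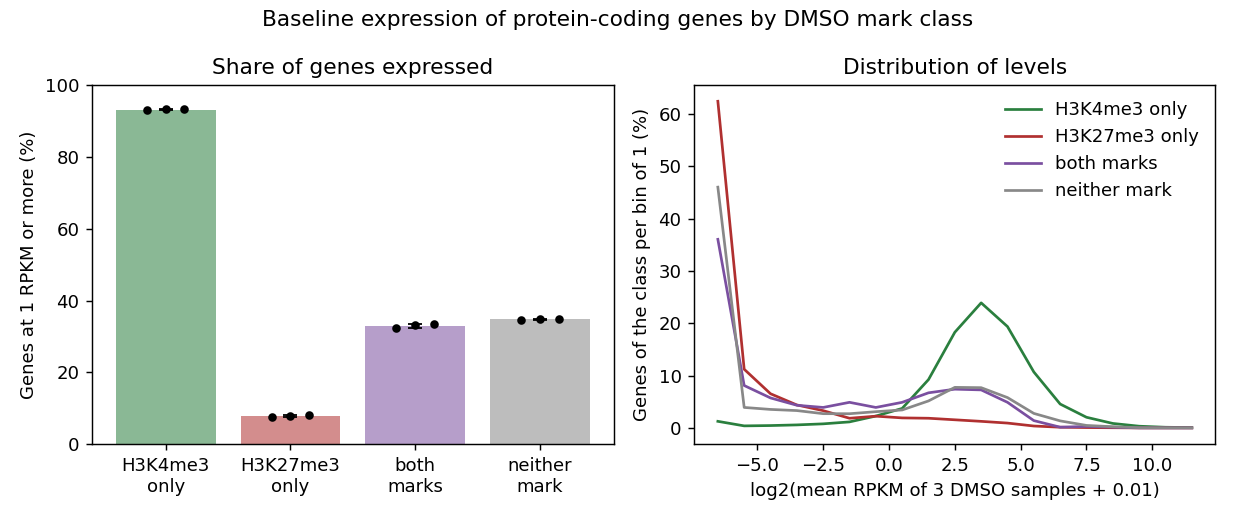
Left, percent of genes of each class at 1 RPKM or more, as the mean of 3 DMSO samples (bars), their SD (error bars) and each sample (points). Right, percent of genes of each class per bin of 1 on a log2 scale of mean RPKM plus 0.01. Genes with H3K4me3 only reach 93.1%, genes with H3K27me3 only 7.93%, and genes with both or neither mark form a low and a high group.

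Read from the side of expression, the share of genes with each mark changed over the range of levels. Strand was taken from RefSeq for 16545 of the coding genes (75.1%), which gave the 5′ end. A DMSO H3K4me3 peak lay within 1 kb of the 5′ end in 1.87% of genes at 0 RPKM, 19.7% at 0.1 to 1 RPKM, 42.5% at 1 to 3 RPKM and 68.0% at 30 to 100 RPKM. An H3K27me3 peak lay there in 18.0% of genes at 0 RPKM, 28.0% of genes above 0 but under 0.1 RPKM, 12.5% at 0.1 to 1 RPKM and 1.64% at 30 to 100 RPKM. The mark was thus more frequent among genes with a trace of RNA than among genes with none, at the 3′ end as well (22.1% against 15.8%). At the 3′ end H3K4me3 stayed between 2.04% and 4.10% of genes below 100 RPKM and was at 8.19% above.

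**Figure D2:**
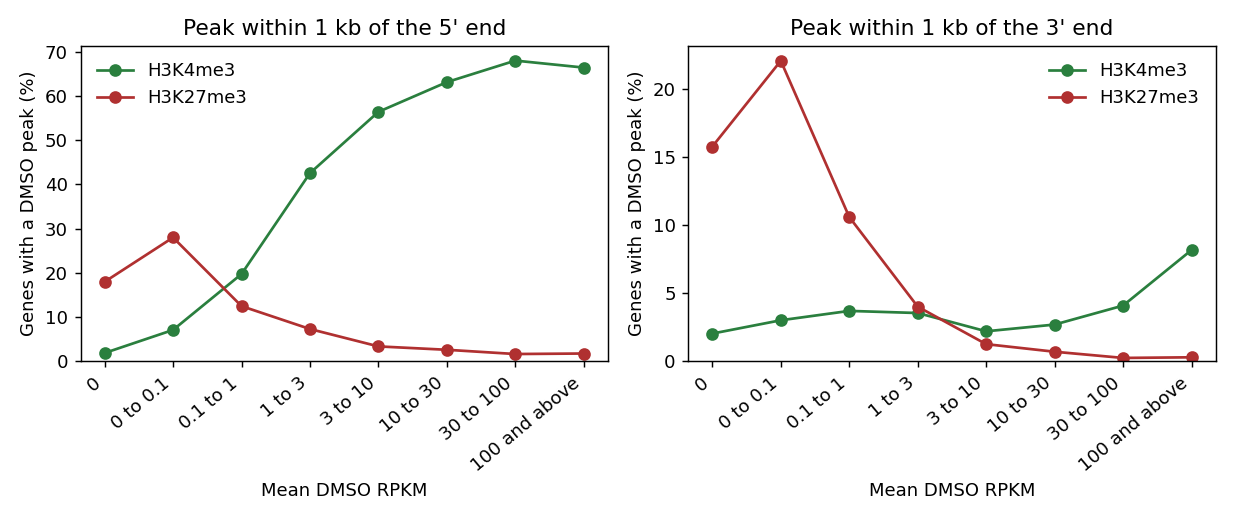
Percent of genes with a DMSO peak of H3K4me3 (green) or H3K27me3 (red) within 1 kb of the 5′ end (left) or 3′ end (right), by mean DMSO RPKM. H3K4me3 at the 5′ end climbs from 1.87% to 68.0%, and H3K27me3 is most frequent, at 28.0%, in genes above 0 but under 0.1 RPKM.

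Position around the 5′ end added to this picture. H3K4me3 peaks were most frequent 200 to 299 bp inside the gene, where they were found in 39.6% of genes at 10 RPKM or more and 28.6% of genes at 1 to 10 RPKM, with fewer directly upstream of the end (9.61% and 10.1% in the last 100 bp). H3K27me3 peaks were sparse around the end, also in silent genes: below 0.1 RPKM the first 100 bp of the gene held a peak in 4.22% of genes, against a mean of 8.04% at 2 to 3 kb on either side. At 10 RPKM or more the share was 0.204% in the last 100 bp before the gene and rose with distance upstream to 5.35% at 3 kb. Within 1 kb of the 5′ end 100 of 4412 such genes had an H3K27me3 peak. In 79 of these the nearest one lay outside the gene and in 9 it crossed the end. Of 7020 genes under 0.1 RPKM, 1433 had an H3K27me3 peak within 1 kb, 682 outside, 484 inside and 267 across the end.

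**Figure D3:**
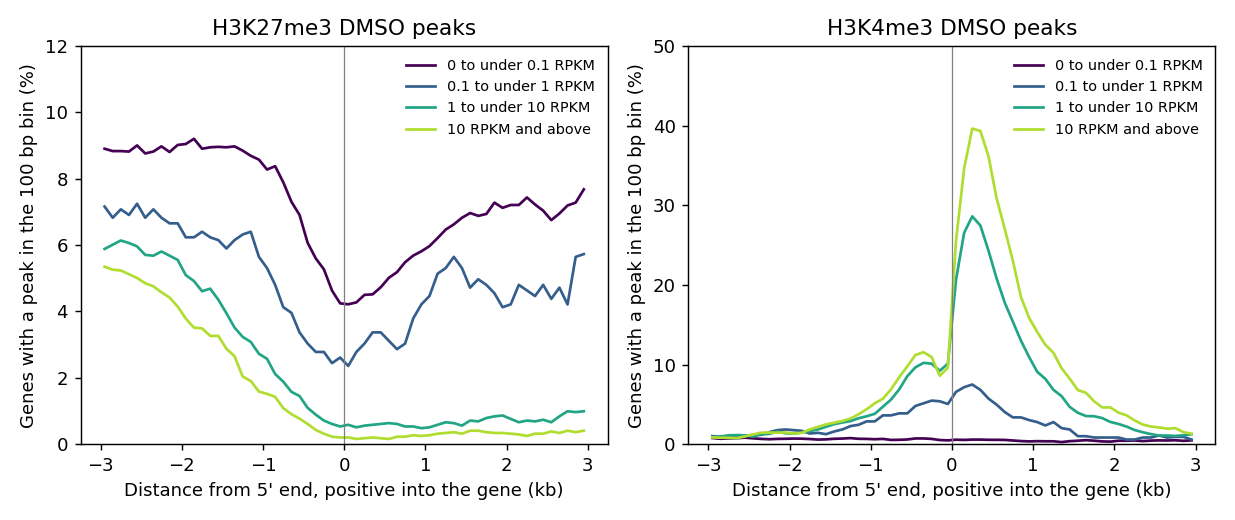
Percent of genes with a DMSO peak in each 100 bp bin from 3 kb upstream to 3 kb inside the table's 5′ end, for H3K27me3 (left) and H3K4me3 (right), by mean DMSO RPKM (colours). H3K27me3 is lower at the end than 3 kb upstream at every level, with a minimum of 4.22% in genes under 0.1 RPKM, and H3K4me3 has its maximum of 39.6% just inside genes at 10 RPKM or more.

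Eef1a1 was the highest gene with H3K4me3 only. It had 3852, 3331 and 3068 RPKM. Col1a1, the other chain of type I collagen, had 1320, 2149 and 3039 RPKM, a spread of 860 (SD) around 2169. Col1a2 had 1545, 2032 and 2486 RPKM. Both collagens were lowest in DMSO sample 1 and highest in sample 3, while Sparc, a collagen-binding protein of bone matrix, was even across samples at 1836, 1839 and 1811 RPKM. The other names among the 10 highest were the galectin Lgals1, the ribosomal protein gene Rpl32, the ferritin heavy chain Fth1, the calcium-binding S100a4, the mineralization inhibitor Mgp and the myosin light chain Myl6, from 1115 to 2444 RPKM.

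Genes with neither mark included 135 of the 438 genes at 100 RPKM or more. Acta2 had 2021, 2126 and 2145 RPKM and Col3a1, type III collagen, 820, 974 and 1114 RPKM. Next to them stood Rps27, Rpl4 and Rps4x of the ribosome, the calcium-binding S100a6, the actin-sequestering Tmsb4x, and the matrix genes Dcn and Postn, from 536 to 1578 RPKM. The deposited lists give calls without signal, so a gene without a call is not shown to lack the mark. Of 4106 genes with neither mark at 1 RPKM or more, 2307 (56.2%) had an H3K4me3 peak at a gene end in the list of the EPZ6438 arm, as did 96.2% of expressed genes with H3K4me3 only. That list held fewer and wider peaks (16216, median 401 bp) than the DMSO list (40113, median 212 bp). The lists were called separately, and whether the mark itself differed between the arms was not tested.

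Of genes with H3K4me3 only, 77 had no read in any DMSO sample, and of genes with both marks 233 had none. The 5 of the former with the widest H3K4me3 peak were Tulp1 of photoreceptors (1133 bp), Lsr of epithelial tricellular junctions (865 bp), Asmt of melatonin synthesis (684 bp), Gm6792 (613 bp) and the lung surfactant gene Sftpc (600 bp). At Tulp1, Lsr and Gm6792 the peak lay at the 3′ end. The class counts only peaks within 1 kb of a gene end. Further inside, H3K27me3 peaks covered 17.5% of the body of Tulp1, 14.5% of that of Gm6792 and 1.31% of that of Lsr. Of the genes with H3K4me3 only and no read, 49 had a known strand. Among these 49, 20 (40.8%) had H3K4me3 at the 3′ end only, against 110 of the other 5063 genes of the class (2.17%).

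Expressed genes with H3K27me3 and no H3K4me3 call within 1 kb of either gene end numbered 245 at 1 RPKM or more. Of these 71 reached 10 RPKM. Such a gene may still hold an H3K4me3 peak further inside, as Csrp1 did 9404 bp downstream of its start. With the whole gene and 1 kb to each side scanned, 3914 genes had both marks in place of 716. A missing call is also not shown to be a missing mark. In the list of the EPZ6438 arm 65 of the 245 (26.5%), Rpl26 among them, had an H3K4me3 peak at a gene end. Of all 245 Rpl26 was the highest at 397, 347 and 362 RPKM. Rpl3, also of the large ribosomal subunit, had 180, 173 and 197 RPKM, and Csrp1 had 125, 125 and 116 RPKM. All 3 were steady across samples. Ssr2, a subunit of the translocon-associated complex of the endoplasmic reticulum, had 112, 118 and 116 RPKM. Chmp4b of the membrane-cutting ESCRT-III complex (77.6 RPKM ± 5.28 SD, n = 3), the RNA-binding nuclease Snd1 (52.9 ± 6.26) and the mitochondrial serine hydroxymethyltransferase Shmt2 (49.8 ± 11.5) followed. The rest of the 20 highest reached from 29.7 to 195 RPKM. They were Fam111a, Mpnd, the SUMO-activating subunit Uba2, the splicing factor Rbm17, the coactivator Sub1, Fam107b, the cargo receptor Lman1, the ATPase Ola1, Commd4, the syntaxin Stx4a, and the ribosomal-protein-like Gm11808, Rps27rt and Gm10269. The last 3 resemble genes elsewhere in the genome, so reads could be split between copies and their levels are uncertain. At the limit of 1 RPKM, Gm28051 (1.02) and Cyb5rl (1.03) were just inside, and Padi2 and Mks1 (both 0.985) just outside.

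In these 20 genes the nearest H3K27me3 peak lay outside the gene in 11, inside it in 5 and across a gene end in 4, which were Ssr2, Fam107b, Lman1 and Stx4a. Where it did not cross the end its gap was 13 to 1000 bp, the shortest at Rps27rt and the longest at Mpnd. The widest peaks across an end were those of Fam107b (2514 bp), Ssr2 (1547 bp) and Stx4a (1386 bp). Peaks of the EPZ6438 list overlapped the nearest H3K27me3 peak at 3 of the 20 genes. Over the class, among genes with H3K27me3 in the 5′ window, the nearest peak crossed the 5′ end in 18 of 134 expressed genes (13.4%) and in 229 of 1355 genes under 1 RPKM (16.9%).

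As a group the 245 expressed genes carried less H3K27me3 than the 2788 genes of their class under 1 RPKM. Peaks covered a median of 1.47% of the gene body against 8.53%, and at least 10% of the body in 28 genes (11.4%) against 1246 (44.7%). The percent covered depends on gene length, and the expressed genes were longer. Among genes with a known strand the median span was 31.0 kb against 15.1 kb. The part of length in this difference was not tested. The better covered end window had a median of 251 bp under peaks against 362.5 bp. A gene end of another coding gene lay within 2 kb in 26.1% against 19.8%. Their promoters held more CG, with an observed to expected ratio of 0.658 against 0.312. Where the mark sat at both ends 6 of 456 genes were expressed, against 128 of 1033 with the mark at the 5′ end only and 43 of 742 at the 3′ end only. With windows of 500 bp and 2 kb at both ends there were 145 and 465 such exceptions. Among genes with a known strand, which 177 of the 245 had, there were 137 with a 1 kb window at the 5′ end only, 88 with 1 kb at the RefSeq start and 35 with 200 bp at the 5′ end.

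**Figure D4:**
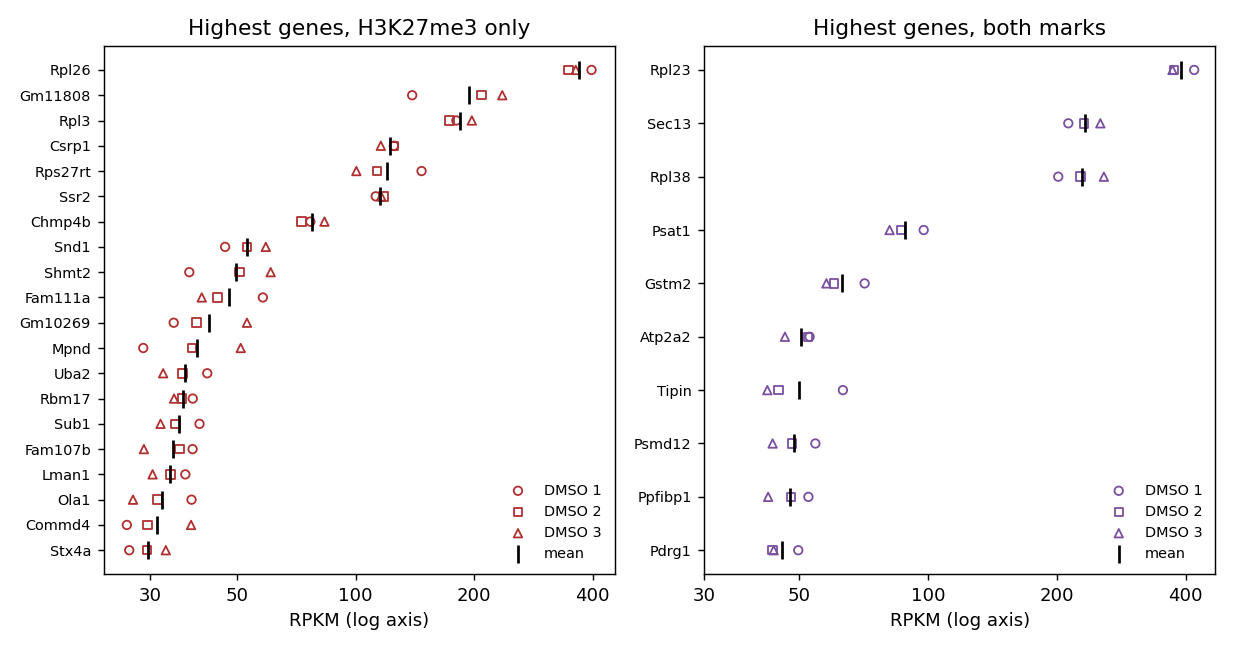
RPKM on a log axis in each DMSO sample (open symbols) with the mean (bar), for the 20 highest genes with H3K27me3 only (left) and the 10 highest with both marks (right). Values run from 29.7 to 369 RPKM on the left and from 45.5 to 389 RPKM on the right, as means, with Rpl26 and Rpl23 at the top.

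Genes with both marks were expressed at 1 RPKM or more in 237 of 716 cases and at 10 RPKM or more in 84. Rpl23 led with 419, 376 and 373 RPKM, ahead of Sec13 with 213, 231 and 253 RPKM and the ribosomal protein gene Rpl38 with 201, 227 and 258 RPKM. The others of the 10 highest were the serine synthesis enzyme Psat1 (88.5 RPKM ± 8.36 SD, n = 3), the glutathione transferase Gstm2 (63.1 ± 7.03), the calcium pump Atp2a2, the replication fork factor Tipin, the proteasome subunit Psmd12, Ppfibp1 and Pdrg1, at 45.5 to 50.5 RPKM. In all 10 the nearest H3K27me3 peak lay outside the gene, 275 to 953 bp from its end. Over all genes of the class with H3K27me3 in the 5′ window and at 1 RPKM or more, 10 of 140 (7.14%) had that peak across the 5′ end, against 65 of 226 (28.8%) under 1 RPKM. The median gap was 634.5 bp in the former and 319 bp in the latter.

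Layout within the class with both marks set the share expressed apart. H3K4me3 at the 5′ end with H3K27me3 at the 3′ end only was found in 79 genes, of which 55.7% were expressed. Both marks at the 5′ end were found in 313 genes, of which 43.5% ± 0.96 (SD, n = 3) were expressed. H3K27me3 at the 5′ end with H3K4me3 at the 3′ end only left 6.92% of 53 genes expressed, and both marks at the 3′ end only 6.39% of 73. The shares with H3K4me3 at the 5′ end exceeded the others by far more than the spread over samples. That spread is over RNA samples of the same genes and does not cover the small number of genes. By mean RPKM 3 of the 53 genes and 5 of the 73 reached 1 RPKM, and the difference between layouts was not tested. Classes drawn from the 5′ end alone, over genes with a known strand, gave a difference between both marks and H3K27me3 only of 34.5 points in place of 25.03.

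Osteoblast genes, most of them expressed, carried few H3K27me3 calls. The lists used here were chosen with earlier results of these data known. Of 54 osteoblast transcription factor, matrix and collagen genes 46 reached 1 RPKM (85.2%) and 3 had H3K27me3 (5.56%), against 48.1% and 17.0% of all coding genes. Expressed genes seldom had the mark: of all 10591 coding genes at 1 RPKM or more 482 did. Whether the list differed from other genes of its level was not tested. Among the 15 transcription factors 11 had H3K4me3 only, with the stress-response factor Atf4 (171 RPKM ± 2.67 SD, n = 3) and the limb mesenchyme factor Prrx1 (72.6 ± 9.25) as the highest beside Sp7. The 3 marked genes were all matrix and mineralization genes under 1 RPKM. Sost, the Wnt antagonist of osteocytes, and Tnfsf11, the ligand that drives osteoclast formation, had no read in any sample, and the pyrophosphate-producing enzyme Enpp1 had 0.036 RPKM ± 0.0079. Of 24 matrix and mineralization genes 15 had neither mark, among them the collagen chaperone Serpinh1 (466 ± 99.2) and the proteoglycan Ogn (356 ± 70.8).

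Regulators of development with H3K27me3 were nearly all under 1 RPKM, as were most coding genes with the mark. Of 112 Hox, other homeobox, T-box, Sox, Gata and forkhead genes 37 had H3K27me3 at a gene end (33.0%), and 1 of these 37 reached 1 RPKM, against 24 of the 75 without. Over all coding genes 17.0% had the mark, and 482 of these 3749 genes reached 1 RPKM. Whether the regulators differed from that was not tested. The marked regulator at 1 RPKM or more was Hoxb9 with 1.92, 1.71 and 1.49 RPKM, and peaks covered 46.9% of its body. Hoxa10 (4.38 RPKM ± 0.249 SD, n = 3), Hoxa5 (2.16 ± 0.198) and Hoxa6 (1.81 ± 0.326) had neither mark. Six3, an eye and forebrain regulator, and Cdx2, a regulator of intestine, had no read and 52.9% and 24.9% of their bodies under peaks. Six2, a factor of mesenchymal progenitors, had H3K4me3 only and 29.97 RPKM ± 1.09. The cartilage regulator Sox9 had H3K4me3 only and 5.72 ± 1.20 RPKM.

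Markers of other lineages had H3K27me3 in 34 of 80 cases (42.5%), and none of the 34 reached 1 RPKM. Over all coding genes 17.0% had the mark, and 482 of these 3749 genes reached 1 RPKM. Whether the markers differed from that was not tested. Examples of the 34 were Epcam of epithelia with 34.1% of the body under peaks, Neurod2 of neurons with 48.2%, and Plin1 of adipocytes with 20.3%, all without a read. Desmin (Des), the intermediate filament of muscle, was the highest of them at 0.811 RPKM ± 0.200. At the other extreme, all 53 listed ribosomal and housekeeping genes were expressed and 1, Rpl3, had H3K27me3. The list did not hold every ribosomal protein gene. Rpl26, Rpl23 and Rpl38, named above with H3K27me3, were not in it.

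Signalling genes with H3K27me3 were mostly under 1 RPKM, as were coding genes with H3K27me3 in general. Of all 3749 coding genes with the mark 482 reached 1 RPKM, so this was not particular to signalling genes. Of 42 Wnt ligands, receptors and antagonists 15 had H3K27me3, and 2 of the 15 reached 1 RPKM. They were Ror2, a receptor for Wnt5a, with 8.07, 10.4 and 13.2 RPKM and a peak near its 3′ end only, and Wif1, a secreted Wnt antagonist, with 2.41, 2.19 and 2.35 RPKM. Ligands such as Wnt3a and Wnt7a had no read, and peaks covered 37.9% and 22.4% of their bodies. In the Hedgehog pathway 6 of 17 genes had H3K27me3 and none of the 6 reached 1 RPKM. The 3 ligand genes Shh, Ihh and Dhh were at 0, 0.0433 and 0.019 RPKM, the target gene Hhip at 0 and the co-ligand Scube3 at 0.898. The signal transducer Smo (62.3 RPKM) had H3K4me3 only. Of 24 BMP and TGF-β genes 6 had H3K27me3, and 1, the BMP family ligand Gdf6 with both marks, was expressed, at 5.79 RPKM ± 0.760.

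A few genes behind the marks themselves were among the exceptions. H3K27me3 was called at 2 of 13 listed genes for setting or removing H3K27 methylation, and 1 of these reached 1 RPKM. For H3K4 methylation it was called at 2 of 15 listed genes, and both reached 1 RPKM. Over all coding genes the share with H3K27me3 was 17.0%. Whether these small lists differed from that share was not tested. Ezh1, the alternative catalytic subunit of Polycomb repressive complex 2, had both marks and 5.97, 6.28 and 5.78 RPKM, with 29 bp of its 5′ window under H3K27me3. Ezh2 had H3K4me3 only and 14.4 RPKM ± 1.79 (SD, n = 3). Dpy30, a core subunit of H3K4 methyltransferases, had both marks and 49.1, 44.0 and 40.7 RPKM, and the H3K4 demethylase Kdm5b had both marks and 3.78 ± 0.426 RPKM. Of 16 interferon-stimulated genes 3 had H3K27me3, and all 3 were just above the limit: Ifit1 (1.31 ± 0.261), Oasl2 (1.24 ± 0.358) and Usp18 (1.19 ± 0.302). The share with the mark in this list was not tested against the 17.0% either. The olfactory receptor gene Olfr56 (1.39 ± 0.403) was the only one of 11 at 1 RPKM or more.

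The expressed exceptions were then followed into the EPZ6438 arm, whose values the classes did not use. The limit of 1 RPKM and the ranking of the highest genes did use the DMSO values. These values also enter each change, so choice and change are not independent. Of 14213 genes tested with limma, 3.8% rose and 3.24% fell at an adjusted p under 0.05. Among genes at 1 RPKM or more in DMSO, 24 of 244 with H3K27me3 only rose (9.84%) and 9 fell (3.69%), and 13 of 237 with both marks rose (5.49%) and 6 fell (2.53%). With H3K4me3 only 141 of 6002 rose (2.35%) and 165 fell, with neither mark 139 of 4104 rose (3.39%) and 216 fell, and over all such genes 2.75% rose and 3.51% fell. The difference between classes was not tested. The 24 became 16 without DMSO sample 2 and 14, 14 and 13 without EPZ6438 samples 1, 2 and 3. In the same order the 13 became 5, 6, 7 and 4, the 141 became 49, 59, 68 and 46, and the 139 became 67, 73, 75 and 66. The falls moved as well: in that order the 9 became 3, 4, 3 and 3, the 6 became 2, 5, 2 and 2, the 165 became 31, 53, 48 and 35, and the 216 became 52, 82, 70 and 63. Below 1 RPKM in DMSO 264 genes with H3K27me3 only were tested. Their count of rises is not given as a result, because 36 of the 508 tested genes of the class passed the filter with under 10 reads in every DMSO sample.

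**Figure D5:**
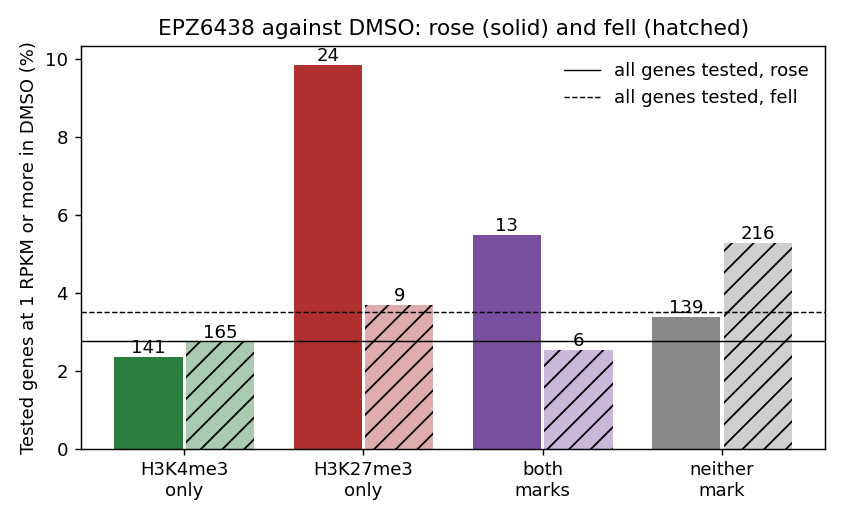
Percent of tested genes at 1 RPKM or more in DMSO that rose (solid bars) or fell (hatched bars) with EPZ6438 in each class, with counts above the bars and lines at the shares over all genes tested at that level (2.75% and 3.51%). The bar for rises stands at 9.84% with H3K27me3 only and at 5.49% with both marks.

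The most abundant exceptions were not among the genes that changed. None of the 20 highest genes with H3K27me3 only and none of the 10 highest with both marks passed, with log2 changes from -0.29 to 0.37 and from -0.31 to 0.37 and smallest limma adjusted p of 0.124 and 0.0587. Rpl26 had 369 RPKM ± 25.7 in DMSO and 391 in EPZ6438, a log2 change of 0.09 ± 0.08 (SE). A change that missed the threshold does not show that a gene was unaffected.

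Changes in the 2 H3K27me3 classes were ranked among called genes with a mean of at least 1 RPKM in the higher arm. By this rule the 5 largest rises with H3K27me3 only were those of Eln, Slc8a3, Cd200, Hpse and Hoxb13. Slc8a3, a sodium-calcium exchanger with H3K27me3 only, had 0.847, 0.827 and 0.739 RPKM in DMSO and 8.93, 9.59 and 8.87 RPKM in EPZ6438, a log2 change of 3.35 ± 0.12 (SE, limma adjusted p = 8.15e-05). Hpse, the heparan sulphate-cleaving enzyme, had 0.514, 0.486 and 0.549 RPKM and then 6.66, 5.28 and 5.45 RPKM. The other 3 had under 10 reads in at least 1 DMSO sample and passed the filter with the help of the EPZ6438 arm, so their values are given as a description. Eln, the elastin gene, had 2, 5 and 13 reads in DMSO and means of 0.109 and 2.39 RPKM in DMSO and EPZ6438. Cd200, a surface glycoprotein, had 7, 16 and 11 reads and means of 0.153 and 2.32 RPKM. Hoxb13 had 2, 2 and 1 reads, no sample above the 3-read floor, and a mean of 1.16 RPKM in EPZ6438. Wif1 rose from 2.32 to 15.4 RPKM, a log2 change of 2.68 ± 0.11 (limma adjusted p = 8.15e-05). Log2 changes are on the scale of RPKM plus 0.1 and understate the change of low genes.

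With both marks the largest rises were in Sema6a, a transmembrane semaphorin, with 1.80, 1.86 and 1.76 RPKM in DMSO and 7.02, 6.61 and 6.56 RPKM in EPZ6438, Robo2, a Slit receptor (0.683 to 2.64 RPKM), Tmem229b (1.59 to 5.35), the nuclear receptor Nr4a3 (0.403 to 1.34) and the ephrin Efna3 (0.945 to 2.82). The falls in both classes included interferon-induced genes. With H3K27me3 only these were I830012O16Rik, Alox5ap of leukotriene synthesis, Olfr56, the amine oxidase Aoc3 and Ifit1, with log2 changes of -1.69, -1.23, -1.15, -1.10 and -0.98. With both marks they were Oasl2 (-1.83), the interferon-induced GTPases Igtp (-1.17) and Irgm2 (-0.83), the glutathione transferase Gstt1 (-1.07) and 5430419D17Rik, from 1.58 to 0.746 RPKM. Of 15 interferon-stimulated genes tested 7 fell and 1 rose, against 3.24% and 3.8% of all 14213 genes tested. The list was chosen with earlier results of these data known, and its difference from other genes was not tested.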

How the data were processed

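Expression and chromatin marks of MC3T3-E1 subclone 4 cells were taken from 3 DMSO and 3 EPZ6438 RNA samples and from merged peak lists of 2 immunoprecipitations per mark and arm. The authors deposited expression as RPKM, per the file headers, with gene positions and no strand. The other deposited values were positions of peaks, without signal, in 1 merged list per mark and arm. The submitters' processing notes name STAR 2.6.1c and Subread, MACS2, HOMER and DiffBind, Picard, FastQC and bcl2fastq, and build mm10, without roles. No source used here gives caller thresholds, the annotation release or the strand setting of counting.

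Reads recovered as RPKM times length were whole in 100% of cases (within 0.001), 18807156 to 25365513 reads per RNA sample. All 3 pairs of DMSO samples differed by more than sampling noise (chi-square per gene 17.1 to 62.4). The 13 coding genes of the mitochondrial chromosome were at 0 in every sample. A gene was assigned a mark when at least 1 base of a peak lay within 1 kb of either gene end. Gene starts and strand came from RefSeq (GRCm38.p6, the same assembly as mm10). Genes with at least 10 reads in at least 3 samples were tested with limma 3.58.1 in R 4.3.3 (trend, two-sided) on log2(RPKM + 0.1), with Benjamini-Hochberg adjustment, and the procedure was tested on simulated data. Python 3.11.15, numpy 2.4.6, pandas 2.3.3 and matplotlib 3.10.9 were used.

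Named genes were the 10 highest per class, the 20 highest with H3K27me3 only, the 5 silent genes with the widest H3K4me3 peak, up to 3 highest and 3 expressed marked members of each of 25 lists, Runx2, Sp7 and Ibsp, and the 5 largest changes in each direction in both H3K27me3 classes. The changes were ranked among called genes with a mean of at least 1 RPKM in the higher arm. Other list members were named after their values were seen. Some genes that the rule names are not reported here. The classes, lists and rules were chosen with earlier results of these data known. Alternatives covered windows, peak width, overlap, isolated genes, thresholds, scaling, the filter, the pseudocount, voom, a replicate block and leaving out each sample.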

Additional observations from a re-analysis of the deposited data

How the results depend on the processing

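The shares at 1 RPKM or more kept the order H3K4me3 only, both marks, H3K27me3 only in all 18 settings. H3K4me3 only minus H3K27me3 only was 85.2 points. It was 86.4 with a 500 bp window, 81.6 with 2 kb, 85.7 over the whole gene, 85.6 at the 5′ end only, 84.1 with peaks of at least 400 bp, 86.8 with 200 bp of overlap, 87.2 for genes with no coding neighbour within 2 kb, 56.9 for genes with at least 10 reads, 84.97 and 82.96 at thresholds of 0.5 and 2 RPKM, and 84.6 in TPM. Both marks minus H3K27me3 only, 25.03 points, was in the same settings 15.5, 32.5, 24.5, 34.5, 31.9, 23.96, 25.4, 25.3, 27.2, 21.3 and 28.8, and 22.3 with both marks in 1 window. H3K4me3 only minus both marks, 60.2 points, was 70.8, 49.1, 61.2, 51.04, 52.2, 62.8, 61.8, 31.5, 57.7, 61.7 and 55.9, and 62.9 in 1 window. Alternatives chosen after seeing the data gave 89.1, 34.99 and 54.1 at the RefSeq start and 86.4, 50.98 and 35.4 with the EPZ6438 list for H3K4me3. Leaving out each DMSO replicate gave 85.1 to 85.3, 24.9 to 25.2 and 59.9 to 60.4. Expressed genes with H3K27me3 only numbered 245, and 145, 465, 137, 149, 88 and 35 with 500 bp, 2 kb, the 5′ end, no neighbour, the RefSeq start and 200 bp at the 5′ end (the last 2 chosen after seeing the data), and 239 to 245 without 1 replicate. The settings at the 5′ end and the RefSeq start also keep only genes with a known strand, which 177 of the 245 had. The cause of these shifts was not tested beyond the construction of each setting.

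EPZ6438 changed 940 coding genes, 573 with no filter on low values, 1124 with voom on the recovered reads and 293 to 942 without 1 replicate. Rises over all tested genes were 159 with H3K4me3 only (51 to 182 without 1 replicate), 93 with H3K27me3 only (54 unfiltered, 52 at the 5′ end only, 32 to 86), 39 with both marks (21 unfiltered, 12 to 40) and 223 with neither mark (145 unfiltered, 91 to 212). These counts include genes that passed the filter through the EPZ6438 arm and are given for their range only: over genes with at least 10 reads in every DMSO sample the rises were 158, 53, 29 and 186. Without DMSO replicate 2 or any 1 EPZ6438 replicate the total was 325, 359, 357 and 293. The replicate numbers were not taken as pairs, because correlations between same-numbered samples were 0.41, 0.078 and 0.056 and DMSO sample 3 correlated best with EPZ6438 sample 2 (0.33). A fit with the replicate number as a block gave 950 calls and 168, 93, 37 and 223 rises. Of the other values, 104 moved and 100 did not. Shares and medians were counted as moved when they shifted by more than their SD over samples. Numbers of genes were counted as moved when they changed by more than a fixed ratio. A gene at 0 reads may still be transcribed at up to about 3 reads per sample, which covers counting error only.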
